A study of Homo sapiens with 18 samples.

Results

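The genes described here are 41 genes that hepatocytes typically express: secreted plasma proteins, a few liver enzymes and the regulators HNF4A, FOXA3 and A1CF. They were chosen by name, as the rows of the deposited count tables whose Ensembl identifier carries 1 of 41 listed symbols in GENCODE, of 61541 genes listed. The list was made with earlier results of these data known, so its counts beside those of all genes are descriptions and not tests. RNA-seq was performed on A549 cells, a human line from a lung adenocarcinoma, labelled as wild type and grown in serum-containing medium. One table holds untreated cells at day 3 (control 3 days) and cells kept in 5 mM sodium propionate (SP) for 3 or 12 days. The other holds untreated cells at 24 h (control 24 h) and cells kept in 5 mM SP for 3 h or 24 h. Each of the 6 groups has 3 libraries, 18 in all. No untreated group was labelled for 3 h or 12 days, so SP 3 h was compared with control 24 h and SP 12 days with control 3 days. In both of these comparisons, SP and time in culture cannot be told apart. All libraries came from 1 cell line, and the labels do not say whether replicates were separate cultures, so p-values measure the spread between these libraries.

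In the liver, hepatocytes secrete most plasma proteins, including albumin, the 3 fibrinogen chains, clotting proteases, apolipoproteins and complement components. Their genes are driven together by a small network of transcription factors, among them HNF4A, FOXA and C/EBP proteins, which bind the promoters and enhancers of these genes and of each other. A1CF, a cofactor of apolipoprotein B mRNA editing, is a further gene typical of this cell type. Several lung adenocarcinomas express part of this set, and A549 cells are known to make fibrinogen and complement proteins.

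The gene set was present only in part. In the tables, 29 members passed edgeR's filter on low counts in the 3 and 12 days libraries and 25 in the 3 h and 24 h libraries, all 25 of them in both. A1CF, TF, SERPINA1 and AHSG passed only in the former. The other 12 were tested nowhere (ADH4, SERPINC1, APOA1, APOB, APOC3, ALB, AFP, TTR, GC, HP, SERPINA3 and ITIH3), and APOC3 and GC had 0 reads in all 18 libraries. ALB, AFP, TTR, APOA1 and APOB, which define hepatocytes, were thus at or near 0, whereas HNF4A and FGB were expressed, and the cells are called here by their label. Levels are given as CPM, read counts scaled to a library total of 1000000 with TMM factors, and for comparisons between genes as that value per kilobase of exon (RPKM). A gene rose or fell where edgeR's quasi-likelihood test gave a Benjamini-Hochberg adjusted p under 0.05, and it was called where the adjusted p was under 1e-04 and the fold change at least 2, the thresholds of the study. In these bulk libraries, fewer cells expressing a gene and less RNA per cell cannot be told apart.

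On GRCh38, GENCODE places the members the results turn on most at HNF4A (ENSG00000101076, chr20:44355699-44432845), BAAT (ENSG00000136881, chr9:101354182-101385400), HABP2 (ENSG00000148702, chr10:113550837-113589602), RBP4 (ENSG00000138207, chr10:93591687-93601744), FGA (ENSG00000171560, chr4:154583126-154590742), FGB (ENSG00000171564, chr4:154563011-154572807), FGG (ENSG00000171557, chr4:154604134-154612967), APOE (ENSG00000130203, chr19:44905791-44909393) and C3 (ENSG00000125730, chr19:6677704-6730562), and values are sums over all exons of a gene. Of the 41 members, 17 share exon bases with another gene, and the tables do not state whether reads were counted by strand.

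Library totals ranged from 14187401 to 43765330 counted reads. Markers of epithelial cells (KRT8, KRT18, KRT19, CDH1 and EPCAM) summed to 5999 to 15351 CPM in the libraries, and all 5 rose at 3 days, 12 days and 24 h. Of 6 leukocyte markers, CD3E and HLA-DRA were at 0 reads in all groups, while the list summed to 16.9 to 18.5 CPM in control 3 days and 34.6 to 37.9 CPM in SP 3 days. The 6 fibroblast markers summed to 15.5 to 16.8 CPM in control 3 days, 63.9 to 74.5 in SP 3 days and 36.2 to 65.7 in SP 12 days, with DCN at 0 in the control. The 5 endothelial markers summed to no more than 3.13 CPM. Of 10 enterocyte genes, from another epithelium that uses HNF factors, 5 were tested. At 3 days 1 rose and 1 fell, against 25.2% and 23.3% of all genes. At 12 days 1 rose and 3 fell, against 26.4% and 23.4%. The part of these markers in the member results was not tested.

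Replicate 3 of SP 12 days stood apart from the other libraries of its group in the members. It held the highest value of the 3 libraries for 25 of the 29 tested members. Its CPM was more than 1.5 times the mean of replicates 1 and 2 for 19 members and more than 2 times for 12. The ratio was 5.50 for FGB, 5.15 for AMBP, 3.28 for SERPINA1, 3.26 for APOH and 3.23 for FGG. The counts of members above were not made over all genes. Across all tested genes, its mean correlation with the other 2 libraries was 0.985, against 0.990 and 0.988 for replicates 1 and 2. Leaving it out also moved the counts over all genes. Between SP 12 days and SP 3 days, 792 genes were higher and 648 lower of 17775 with it, and 2456 and 2617 of 18067 without it. Values at 12 days are therefore given with and without this library where they rest on it.

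The promoters of members are shown first, because several hold short motifs typical of liver gene promoters. RefSeq's 300 base windows on GRCh38.p14, from 250 bases before to 50 bases after the transcription start, were matched for 30 members. The start used lay within 500 bases of the 5′ end of the GENCODE gene for 21 of them, for APOH 27110 bases inside the gene and for TF 84042 bases before it. They were searched on both strands for the letters GTTAAT, for the FOXA core TGTTTAC and the HNF4 core CAAAGTC. The first of these was found in 9 of 30 member windows (30%), those of ADH4, AFP, ALB, APOH, F2, FGA, FGB, HABP2 and PROC, against 6.89% of 27305 windows of all genes. The FOXA core was found in HABP2 only (3.41% of all windows) and the HNF4 core in AHSG and HABP2 (3.43% of all windows). A match is a description of the letters, and binding was not measured. The 5 windows below belong to tested members with GTTAAT, and F2, whose window also holds it, is not printed. They are FGA at chr4:154590693-154590992 (minus strand), FGB at chr4:154562730-154563029 (plus strand), APOH at chr17:66229366-66229665 (minus strand), HABP2 at chr10:113550581-113550880 (plus strand) and PROC at chr2:127418177-127418476 (plus strand), each written 5′ to 3′ on the strand of the gene. Capitals mark the motifs, and in HABP2 the last run of capitals is GTTAAT on the minus strand followed directly by the FOXA core.
FGA: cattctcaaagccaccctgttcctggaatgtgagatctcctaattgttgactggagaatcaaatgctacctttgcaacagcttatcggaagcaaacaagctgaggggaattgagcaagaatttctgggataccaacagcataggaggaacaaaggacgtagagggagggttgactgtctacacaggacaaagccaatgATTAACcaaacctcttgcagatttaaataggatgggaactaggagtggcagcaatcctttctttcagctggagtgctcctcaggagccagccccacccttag
FGB: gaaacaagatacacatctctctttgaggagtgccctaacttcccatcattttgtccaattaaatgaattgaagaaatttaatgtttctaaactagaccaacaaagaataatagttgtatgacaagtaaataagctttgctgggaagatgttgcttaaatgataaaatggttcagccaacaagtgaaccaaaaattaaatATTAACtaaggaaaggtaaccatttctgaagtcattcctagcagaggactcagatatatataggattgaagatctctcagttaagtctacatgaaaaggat
APOH: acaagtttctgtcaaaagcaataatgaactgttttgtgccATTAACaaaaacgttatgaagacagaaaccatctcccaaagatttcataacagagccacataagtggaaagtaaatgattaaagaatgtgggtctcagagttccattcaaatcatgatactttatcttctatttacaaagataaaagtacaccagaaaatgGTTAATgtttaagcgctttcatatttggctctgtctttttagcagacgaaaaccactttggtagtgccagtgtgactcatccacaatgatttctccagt
HABP2: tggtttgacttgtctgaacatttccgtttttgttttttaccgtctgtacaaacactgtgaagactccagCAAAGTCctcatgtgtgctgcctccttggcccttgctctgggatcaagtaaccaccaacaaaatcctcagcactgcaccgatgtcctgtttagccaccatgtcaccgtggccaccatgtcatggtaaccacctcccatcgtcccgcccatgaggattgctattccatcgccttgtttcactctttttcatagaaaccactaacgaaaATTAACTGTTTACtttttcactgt
PROC: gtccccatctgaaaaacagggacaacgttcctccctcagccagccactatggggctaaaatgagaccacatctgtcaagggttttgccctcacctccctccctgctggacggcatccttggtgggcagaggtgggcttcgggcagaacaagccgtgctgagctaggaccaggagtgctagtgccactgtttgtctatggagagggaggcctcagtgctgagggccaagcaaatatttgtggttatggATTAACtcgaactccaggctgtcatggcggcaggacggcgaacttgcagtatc

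Members with and without these letters moved. Of these 5 genes, HABP2 fell furthest, FGA, FGB and APOH fell at 12 days, and PROC rose. BAAT, ADH6, ADH1C and RBP4, which were called lower, held none of the 3 motifs in their windows.

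To ask what SP did to these genes over days, SP 3 days was compared with control 3 days. More members fell than rose, and APOE and C3 were among those that rose. Of 29 members tested, 16 fell and 3 rose, and 10 did not pass the test. Over all 17775 genes tested, 23.3% fell and 25.2% rose. Because the members were chosen with earlier results of these data known, this contrast is a description and not a test. At the thresholds of the study 8 members were called lower and 2 higher, against 1.86% and 6.58% of all genes. The median log2 fold change of the tested members was -0.86, and that of all genes -0.02. In 20 members all SP libraries lay below all control libraries, and in 5 all lay above.

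After 12 days of SP, 18 members fell, 3 rose and 8 did not pass, against 23.4% and 26.4% of all genes. The study's thresholds called 10 lower and 1 higher, against 2.23% and 6.88% of all genes. The median was -1.2 for members and -0.00 for all genes. Both comparisons share the 3 control libraries. At 12 days, SP and time in culture cannot be told apart, since the control is of day 3. Without replicate 3 of SP 12 days, an alternative added to this count after the data had been seen, 21 members were lower and 3 higher, 17 were called lower and 1 higher, and the median was -1.70. Of all 18067 genes in that fit, 27.6% were lower and 3.66% were called lower, while 4934 were higher and 1332 were called higher.

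**Figure D1:**
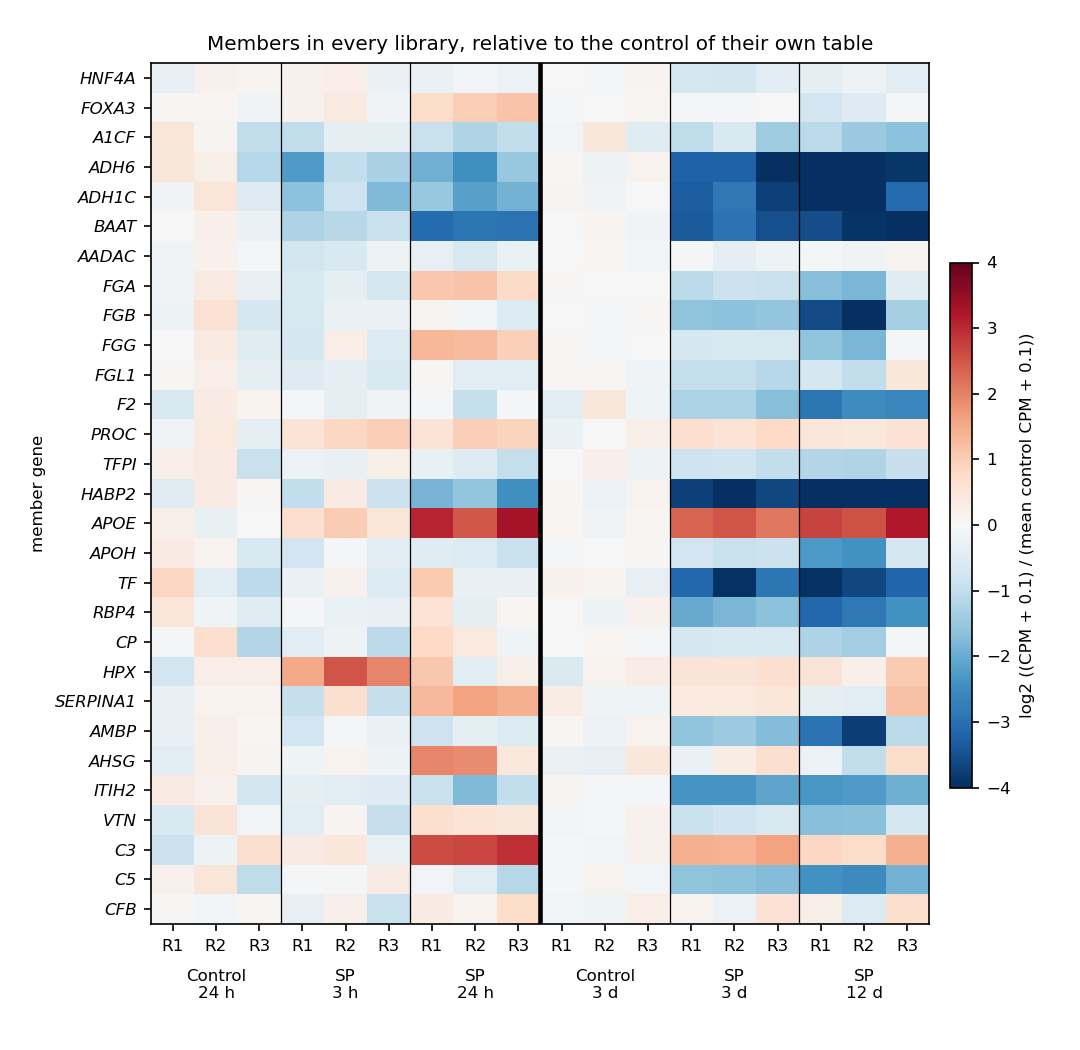
Heat map of the 29 members tested in the 3 and 12 days libraries (rows) in each of the 18 libraries (columns, R1 to R3 within a group), as log2 of CPM plus 0.1 over the mean control CPM plus 0.1 of the same table, with colours limited at 4 in either direction. In the SP 3 d and SP 12 d columns ADH6, ADH1C, BAAT, HABP2 and TF are dark blue and APOE and C3 are red, and replicate 3 of SP 12 days is paler than replicates 1 and 2 for FGB, FGG, APOH and AMBP.

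**Figure D2:**
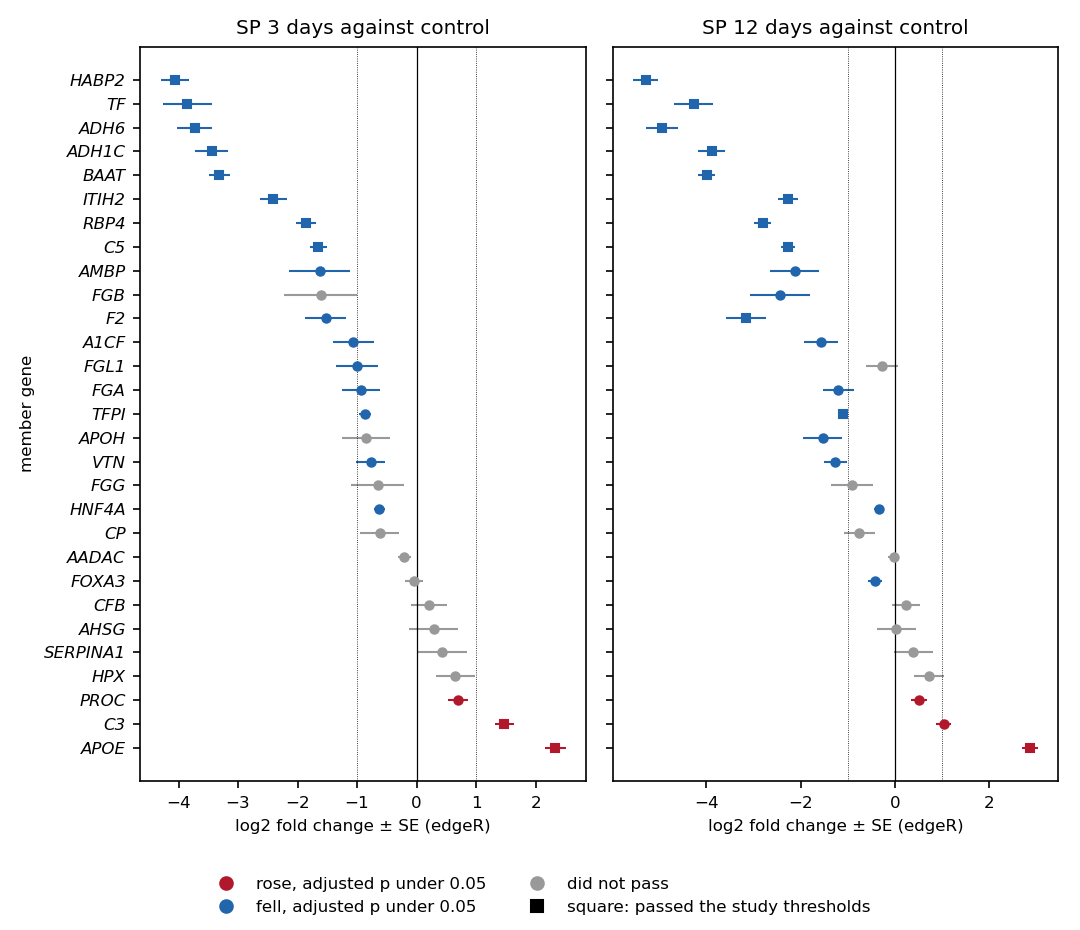
Log2 fold change with its standard error (edgeR) for the same 29 members at 3 days (left) and 12 days (right), 3 libraries per group, ordered by the value at 3 days, with dotted lines at a 2-fold change, red for genes that rose, blue for genes that fell, grey for neither and squares for genes past the thresholds of the study. The panels have their own x ranges. HABP2, TF, ADH6, ADH1C and BAAT lie furthest to the left in both panels and APOE furthest to the right.

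Among the regulators, HNF4A, the nuclear receptor that defines hepatocyte identity, was modestly lower. It measured 46.0, 44.1 and 50.7 CPM in control 3 days, 29.0, 28.5 and 33.9 CPM in SP 3 days and 36.0, 40.5 and 34.8 CPM in SP 12 days. All SP libraries lay below all controls. Its log2 fold change was -0.62 ± 0.10 (SE) at 3 days (edgeR adjusted p = 8.47e-05) and -0.34 ± 0.10 at 12 days (adjusted p = 0.00896). FOXA3, a forkhead factor that opens chromatin at liver genes, measured 11.6, 12.2 and 12.9 CPM in the control, 11.9, 11.6 and 12.1 at 3 days and 7.08, 8.58 and 11.6 at 12 days. Its SP 3 days libraries overlapped the controls, and at 12 days all 3 lay below them though replicate 3 only just. The change did not pass at 3 days (-0.04 ± 0.15, adjusted p = 0.838) and was -0.42 ± 0.15 at 12 days (adjusted p = 0.0295), a fall that ended when control replicate 2 or 3, or replicate 1 or 2 of SP 12 days, was left out (adjusted p up to 0.113). A1CF was low, at 28, 32 and 17 reads in the control, 11, 15 and 8 reads at 3 days and 10, 9 and 9 reads at 12 days. It fell by 1.06 and 1.56 on the log2 scale (edgeR adjusted p = 0.0203 and 0.00204), and 378 bases of its exons are shared with ASAH2B. Leaving out control replicate 2, SP 3 days replicate 1 or SP 3 days replicate 3 ended its fall at 3 days (adjusted p up to 0.111).

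Other liver-type transcription factors were counted as a list of 30 genes, of which 28 were tested. At 3 days 6 rose (21.4%) and 8 fell (28.6%), near the 25.2% and 23.3% of all genes. At 12 days 7 rose (25%) and 10 fell (35.7%), against 26.4% and 23.4%. HNF4G, the close relative of HNF4A, fell by 2.02 and 2.36 on the log2 scale (edgeR adjusted p = 6.18e-07 and 1.07e-07) and was called both times. Changes in FOXA1 were -0.89 and -0.56 and in FOXA2 -0.46 and -0.75, all past the test and none called.

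Some factors of the list went up. CREB3L3, a membrane-bound factor of hepatic secretion and lipid metabolism, rose after both durations, with 0.544 ± 0.0589 CPM in control 3 days, 5.21 ± 0.82 in SP 3 days and 2.62 ± 0.29 in SP 12 days (SD, n = 3). Its change was 3.25 and 2.27 on the log2 scale (edgeR adjusted p = 2.90e-08 and 2.44e-06). PPARA, the fatty acid receptor of the liver, rose by 1.26 and 1.12 and NR5A2, a receptor of bile acid genes, by 0.87 and 1.10 on the log2 scale. CEBPA, a basic zipper factor of hepatocytes, had log2 fold changes of 0.37 and 0.02 that did not pass (adjusted p = 0.0701 and 0.932).

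**Figure D3:**
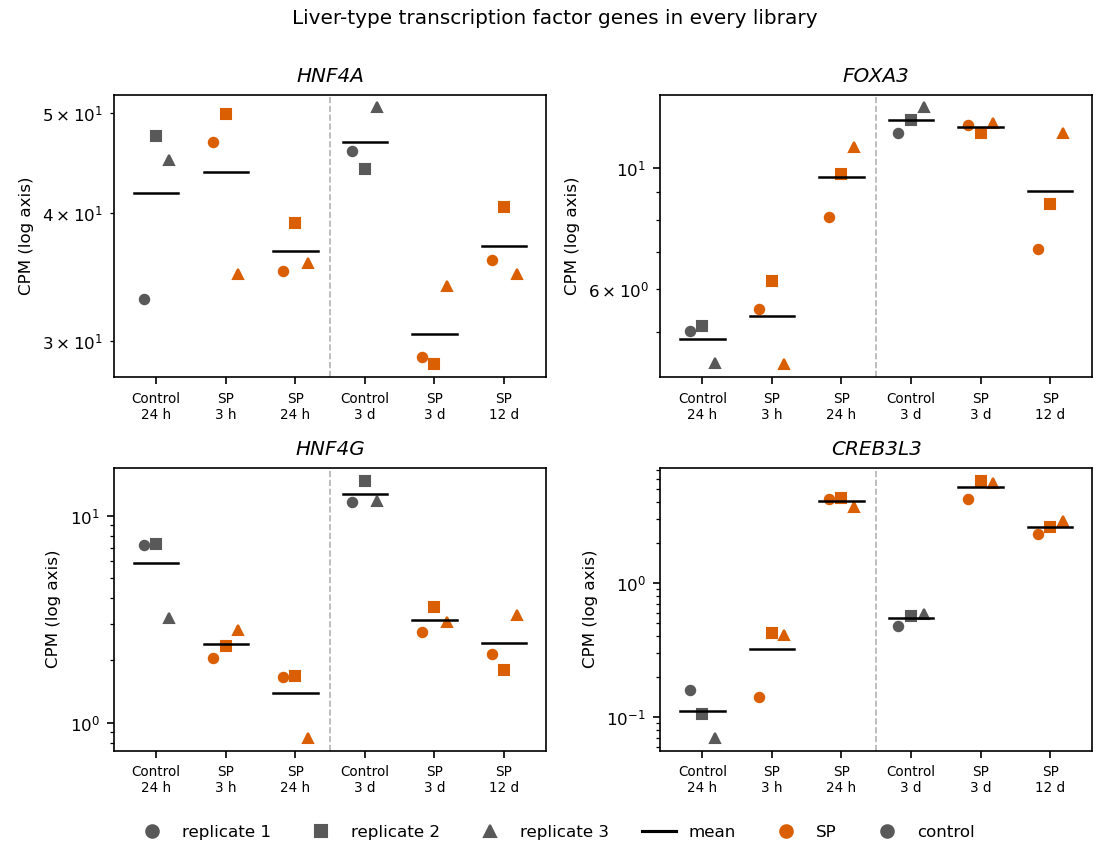
CPM (log axis, own range for each gene) of HNF4A, FOXA3, HNF4G and CREB3L3 in each library of the 6 groups, with symbols for replicates, bars for the mean, grey for control and orange for SP. A dashed line separates the tables, which were scaled separately. HNF4G sits below its control in every SP group, whereas CREB3L3 sits above it at 24 h, 3 days and 12 days.

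The enzymes held the clearest losses. BAAT, which conjugates bile acids with glycine or taurine, measured 19.9, 21.3 and 17.6 CPM in control 3 days, 1.83, 2.44 and 1.62 CPM in SP 3 days and 1.58, 1.2 and 0.975 CPM in SP 12 days. Each SP library was far below each control. Its log2 fold change was -3.32 ± 0.18 after 3 days of SP and -3.99 ± 0.19 after 12 days, 9.98-fold and 15.9-fold lower (edgeR adjusted p = 9.17e-10 and 1.90e-10). ADH6, an alcohol dehydrogenase, measured 6.17, 5.20 and 6.56 CPM in the control, 0.549, 0.548 and 0.239 at 3 days and 0.0632, 0.150 and 0.310 at 12 days. The groups did not overlap, and the SP 12 days libraries together held 11 reads against 323 in the control, a ratio of scaled reads of 0.0314 (95% counting interval 0.0155 to 0.0569). Its fitted log2 fold change was -3.73 ± 0.30 and -4.95 ± 0.34 (adjusted p = 7.45e-08 and 1.03e-08).

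ADH1C, an ethanol-oxidizing dehydrogenase, fell with it. It measured 7.51, 6.27 and 6.86 CPM in the control, 0.610, 0.853 and 0.419 at 3 days and 0.316, 0.299 and 0.709 at 12 days. There was no overlap, and the log2 fold change was -3.45 ± 0.28 and -3.89 ± 0.28 (edgeR adjusted p = 7.04e-08 and 2.02e-08). ADH1C is nearly identical to ADH1A and ADH1B, so its reads could be split among them. AADAC, an esterase of the hepatic endoplasmic reticulum, behaved differently, with 15.3 to 17.5 CPM in the control, 13 to 15.8 at 3 days and 15.0 to 17.9 at 12 days. Its groups overlapped and its log2 fold change was -0.20 and -0.03 (adjusted p = 0.153 and 0.865). ADH4, another member of this family, held 16 reads in the control libraries together and 1 in each SP group, a ratio of scaled reads of 0.0679 (95% counting interval 0.00162 to 0.437) at 3 days and 0.0575 (0.00137 to 0.370) at 12 days. Of the 30 other hepatocyte enzymes and receptors listed, 12 were tested. At 3 days 3 rose and 4 fell, against 25.2% and 23.3% of all genes. At 12 days 4 rose and 5 fell, against 26.4% and 23.4%. ASS1, the urea cycle enzyme that makes argininosuccinate, rose from 22.1 ± 1.59 to 83.8 ± 1.62 CPM at 3 days and to 76.5 ± 21.2 CPM at 12 days, and TM4SF4, a membrane protein of the liver and gut, fell by 0.46 and 1.54 on the log2 scale.

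Of the members, FGA and FGL1 had the highest mean level per length in control 3 days. FGA was at 34.4 ± 0.75 RPKM and FGL1 at 33.4 ± 2.75 (SD, n = 3), ahead of VTN (26.1 ± 2.93) and APOH (22.3 ± 0.81). The ranges of FGA and FGL1 overlapped, as did those of FGB (18.1 ± 0.72), CP (17.5 ± 0.96) and FGG (17.2 ± 0.52), each with the next. This order depends on the length used, all annotated exons of a gene, which was 3917 bases for FGA, 11577 for C3 and 16890 for C5. In CPM, C5 (201 to 241) and C3 (167 to 203) were above FGA (132 to 138). FGA, FGB and FGG encode the 3 chains of fibrinogen and lie side by side on chromosome 4, and FGL1 encodes a related liver-secreted protein. The library values of these genes, and of APOH, AMBP, CP and VTN below, were chosen for printing after they had been seen.

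At 3 days the libraries of all 3 chain genes lay below the control, and FGA passed the test. FGA measured 138, 132 and 134 CPM in the control, 65.8, 74.0 and 72.3 at 3 days and 41.7, 37.8 and 95.6 at 12 days. FGB measured 79.0, 76.3 and 82.6 CPM in the control, 25.9, 25.5 and 26.5 at 3 days and 6.58, 4.79 and 31.2 at 12 days. In both genes every SP library lay below every control library, and the last of the SP 12 days values stood well above the other 2. FGG measured 63.5, 59.8 and 62.3 CPM, then 37.9, 40.5 and 39.9, and then 20.0, 17.4 and 60.5 in these 3 groups. Its SP 3 days libraries lay below the controls and its SP 12 days replicate 3 lay within them. FGL1 measured 113, 117 and 100 CPM, then 57.2, 57.2 and 50.4, and then 67.7, 55.5 and 150, with the last value above every control.

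In the test over all 9 libraries FGA had a log2 fold change of -0.93 ± 0.32 after 3 days and -1.2 ± 0.33 after 12 days (edgeR adjusted p = 0.0470 and 0.0171). FGL1 fell at 3 days by 1.00 ± 0.35 (adjusted p = 0.0486) and had -0.27 ± 0.34 at 12 days (adjusted p = 0.553). FGB had -1.61 ± 0.61 at 3 days, which did not pass (adjusted p = 0.0710), and fell by 2.44 ± 0.64 at 12 days (adjusted p = 0.0181). FGG passed at neither time (-0.65 and -0.91, adjusted p = 0.273 and 0.135). Both falls at 3 days were lost when any single control or SP 3 days library was left out (adjusted p up to 0.123 for FGA and 0.111 for FGL1), and that of FGA at 12 days without control replicate 1, where the adjusted p was just over 0.05. The errors of these genes rest on replicate 3 of SP 12 days, since all 9 libraries share 1 estimate of the spread per gene. Without it, FGB, FGL1 and AMBP were also called lower at 3 days, where 507 of 18067 genes were called lower, against 331 of 17775 with it. At 12 days the log2 fold changes without it were -3.84 ± 0.12 for FGB, -1.78 ± 0.08 for FGA, -1.75 ± 0.09 for FGG and -0.86 ± 0.09 for FGL1 (adjusted p = 3.22e-18, 7.53e-15, 7.85e-14 and 4.09e-08).

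**Figure D4:**
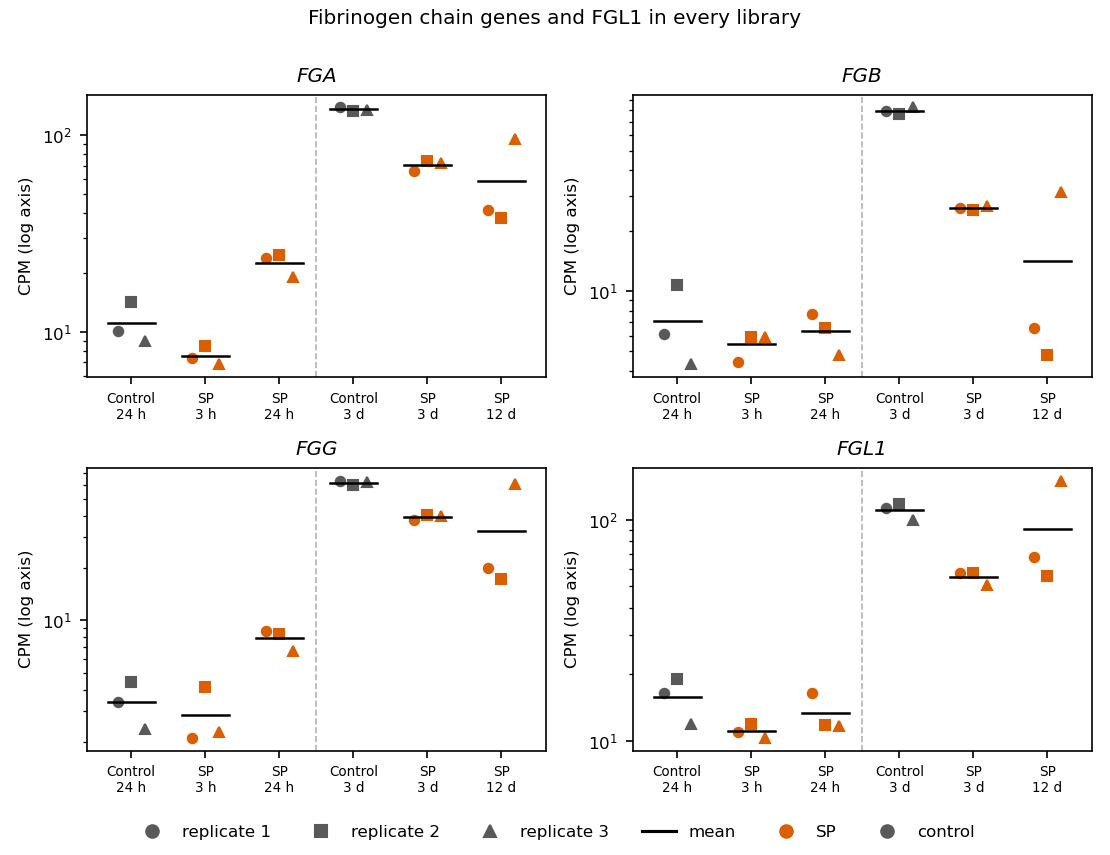
CPM (log axis, own range for each gene) of FGA, FGB, FGG and FGL1 in each library of the 6 groups, with symbols for replicates and bars for the mean. At 12 days replicate 3 (triangle) lies above replicates 1 and 2 in each gene, and in control 3 days all 4 genes lie above control 24 h, a difference between tables that were scaled separately. Table and labelled time of these controls cannot be told apart.

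Among coagulation proteases and inhibitors, HABP2, a hyaluronan-binding serine protease, showed the largest fall of any member at both times in the fit over all 9 libraries. It measured 19.7, 16 and 21.2 CPM in the control, 1.34, 0.609 and 1.44 CPM at 3 days and 0.569, 0.249 and 0.620 CPM at 12 days. The groups did not overlap, and the log2 fold change was -4.06 ± 0.24 and -5.29 ± 0.27, 16.7-fold and 39.1-fold lower (edgeR adjusted p = 2.21e-09 and 4.43e-10). F2, prothrombin, was at low levels of 1.15, 2.26 and 1.42 CPM in the control, 0.610, 0.609 and 0.419 at 3 days and 0.126, 0.200 and 0.177 at 12 days. All SP libraries were below all controls, and F2 fell by 1.53 ± 0.35 and 3.16 ± 0.42 (adjusted p = 0.00192 and 1.31e-05). Its call at 12 days was lost without control replicate 2 or without SP 12 days replicate 1 (adjusted p up to 1.15e-04).

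TFPI, the inhibitor of tissue factor, and PROC, the zymogen of activated protein C, went in opposite directions. TFPI measured 141, 161 and 122 CPM in the control, 79.0, 82.1 and 71.6 at 3 days and 63.1, 61.2 and 74.3 at 12 days. It lay below the controls in all 6 SP libraries and fell by 0.86 ± 0.11 and 1.09 ± 0.11 on the log2 scale (edgeR adjusted p = 6.45e-06 and 5.08e-07). PROC measured 3.06, 3.70 and 4.37 CPM in the control, 5.91, 5.42 and 6.58 at 3 days and 5.18, 5.04 and 5.58 at 12 days. It lay above the controls in all 6 and rose by 0.69 ± 0.17 and 0.52 ± 0.17 (adjusted p = 0.00290 and 0.0178), but with a correction for GC content and length its log2 fold change was 0.34 and 0.28 and did not pass at either time. SERPINC1, antithrombin, held 5 reads in the control, 1 at 3 days and 12 at 12 days. Of 23 other coagulation genes, 12 were tested, of which 7 rose and 4 fell at 3 days and 5 rose and 3 fell at 12 days. The shares over all genes were 25.2% and 23.3% at 3 days and 26.4% and 23.4% at 12 days. TFPI2, a relative of TFPI, rose by 2.23 and 2.43, and F7, which starts the extrinsic pathway, fell with 74 reads in the control, 9 after 3 days of SP and 3 after 12 days, a ratio of scaled reads of 0.132 (0.0581 to 0.265) and 0.0373 (0.00753 to 0.113).

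APOE, the ligand by which remnant lipoproteins are taken up, was the member with the largest rise. It measured 13.2, 11.3 and 13.1 CPM in the control, 63.1, 71.9 and 55.0 at 3 days and 82.4, 74.1 and 117 at 12 days. Each SP library was several times above each control. APOE rose by 2.33 ± 0.17 and 2.86 ± 0.17 on the log2 scale, 5.04-fold and 7.27-fold (edgeR adjusted p = 4.71e-07 and 7.34e-08). APOH, a phospholipid-binding plasma protein, measured 28.9, 29.2 and 30.9 CPM, then 17.4, 15.8 and 16.2, and then 6.01, 5.44 and 18.7. All SP libraries lay below the controls, and its change was -0.85 ± 0.41 at 3 days (adjusted p = 0.126) and -1.53 ± 0.42 at 12 days (adjusted p = 0.0173), or -2.40 ± 0.12 without SP 12 days replicate 3. APOA1, the main HDL protein, held 0 reads in each control 3 days library, 1, 0 and 0 at 3 days and 2, 3 and 0 at 12 days, and APOB held at most 1 read in any of the 18 libraries. Of 18 other apolipoprotein and lipoprotein assembly genes, 10 were tested, with 4 rising and 0 falling at 3 days and 3 rising and 1 falling at 12 days. Over all genes, 25.2% rose and 23.3% fell at 3 days, and 26.4% and 23.4% at 12 days.

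Of the 4 carriers tested, RBP4 and TF fell and CP and HPX did not pass. RBP4, the retinol carrier, measured 14.3, 12.3 and 16.1 CPM in the control, 3.41, 3.90 and 4.49 at 3 days and 1.52, 1.90 and 2.57 at 12 days. The 3 groups were fully separate, with a log2 fold change of -1.86 ± 0.17 and -2.81 ± 0.19 (edgeR adjusted p = 3.69e-07 and 7.26e-09). TF, transferrin, held 57, 42 and 32 reads in the control, 3, 1 and 4 reads at 3 days and 1, 2 and 4 reads at 12 days. Its libraries did not overlap the controls, and TF fell by 3.85 ± 0.41 and 4.27 ± 0.41, with 313 of its exon bases shared with SRPRB or a gene without a symbol (adjusted p = 1.37e-06 and 4.83e-07).

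CP, the copper-carrying ferroxidase ceruloplasmin, was abundant at 122, 132 and 118 CPM in the control, with 78.3, 82.1 and 81.7 at 3 days and 52.4, 47.7 and 120 at 12 days. At 3 days its libraries lay below the controls, but neither comparison passed (-0.62 ± 0.32 and -0.75 ± 0.32, edgeR adjusted p = 0.155 and 0.0904). Without SP 12 days replicate 3 it was -1.33 ± 0.08 at 12 days and was called. HPX, the haem carrier hemopexin, had 0.574 to 1.12 CPM in the control, 1.34 to 1.5 at 3 days and 1.05 to 1.95 at 12 days, and neither difference passed (adjusted p = 0.113 and 0.0741).

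Albumin and transthyretin, the best known hepatocyte carriers, were near 0 reads throughout. ALB held 7, 4 and 8 reads in control 3 days, 1, 1 and 0 in SP 3 days and 0, 0 and 1 in SP 12 days. TTR held 5, 8 and 6 reads, then 0, 1 and 0, and then 1, 1 and 2. In both genes the SP libraries lay below the controls at these few reads. For ALB the ratio of scaled reads was 0.114 (95% counting interval 0.0129 to 0.474) at 3 days and 0.0485 (0.00117 to 0.305) at 12 days, and for TTR 0.0572 (0.00138 to 0.360) and 0.194 (0.0480 to 0.583), intervals that cover counting error only. AFP, the fetal counterpart of albumin, held 3, 6 and 1 reads in the control, 0, 1 and 2 at 3 days and 2, 3 and 7 at 12 days, with overlapping groups. HP held at most 3 reads in any library. Among 24 other carriers and acute phase genes, 9 were tested, with 2 rising and 2 falling at 3 days and 1 rising and 5 falling at 12 days. The shares over all genes were 25.2% and 23.3% at 3 days and 26.4% and 23.4% at 12 days. IGFBP1, an insulin-like growth factor carrier, fell from 25.5 ± 1.52 CPM to 8.14 ± 1.09 and 7.84 ± 0.48.

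Of the protease inhibitors and matrix proteins, ITIH2, an inter-alpha-trypsin inhibitor heavy chain that binds hyaluronan, was called at both times. It measured 4.49, 4.01 and 4.08 CPM in the control, 0.732, 0.731 and 0.897 at 3 days and 0.759, 0.798 and 1.02 at 12 days. The SP libraries lay well below the controls, and ITIH2 fell by 2.41 ± 0.23 and 2.27 ± 0.22 on the log2 scale (edgeR adjusted p = 4.19e-07 and 4.45e-07). AMBP, which encodes the light chain bikunin, measured 10.0, 8.02 and 10.3 CPM, then 3.05, 3.41 and 2.75, and then 1.14, 0.599 and 4.48. It did not overlap the controls and fell by 1.63 ± 0.51 and 2.13 ± 0.52 (adjusted p = 0.0292 and 0.00947), or by 3.51 ± 0.23 at 12 days without replicate 3. Its fall at 3 days was lost without any single control or SP 3 days library (adjusted p up to 0.0854).

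VTN, the adhesive plasma protein vitronectin, measured 46.2, 46.7 and 56.1 CPM, then 27.0, 28.5 and 31.6, and then 15.2, 15.7 and 30.7. All SP libraries lay below the controls, and VTN fell by 0.77 ± 0.24 and 1.26 ± 0.25 on the log2 scale (edgeR adjusted p = 0.0277 and 0.00257). The fall at 3 days was lost without any single control or SP 3 days library (adjusted p up to 0.0878). SERPINA1, the elastase inhibitor alpha-1 antitrypsin, held 26, 14 and 15 reads in the control, 22, 22 and 24 at 3 days and 12, 14 and 54 at 12 days. The groups overlapped in reads. Scaled to CPM, all SP 3 days libraries lay above the controls (0.877 to 1.24 CPM), and SP 12 days overlapped them (0.699 to 2.39 CPM). Neither log2 fold change passed (0.43 ± 0.42 and 0.39 ± 0.41, edgeR adjusted p = 0.415 and 0.458). Without replicate 3 of SP 12 days the value of SERPINA1 at 12 days was -0.50 ± 0.34, again not past the test (adjusted p = 0.219). AHSG, or fetuin-A, also did not pass (0.29 and 0.03, the latter -0.65 without that library), SERPINA3 held at most 4 reads and ITIH3 at most 3 reads in any library.

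Complement split between its members. C3, the central component on which all pathways meet, measured 175, 167 and 203 CPM in the control, 482, 480 and 550 at 3 days and 324, 300 and 487 at 12 days. Every SP library exceeded every control, and C3 rose by 1.47 ± 0.16 and 1.03 ± 0.16 on the log2 scale (edgeR adjusted p = 1.92e-05 and 2.82e-04). The call at 3 days was lost when any control library, SP 3 days replicate 1 or SP 3 days replicate 3 was left out (adjusted p up to 3.18e-04). C5, which starts the terminal pathway, measured 207, 241 and 201 CPM, then 71.6, 69.0 and 65.6, and then 39.9, 36.7 and 58.1. It was below the controls throughout and fell by 1.65 ± 0.14 and 2.26 ± 0.15 (adjusted p = 1.02e-06 and 6.35e-08). CFB, a protease of the alternative pathway that shares 2273 exon bases with other genes including C2, did not pass (0.22 at both times, adjusted p = 0.582 and 0.558, and below 0 at 12 days without replicate 3).

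Of 23 other complement genes, 15 were tested, 4 rose and 5 fell at 3 days, and 5 rose and 3 fell at 12 days. Over all genes, 25.2% rose and 23.3% fell at 3 days, and 26.4% and 23.4% at 12 days. CD59, which blocks the membrane attack complex, had log2 fold changes of 1.32 and 1.34, and C1R, a protease of the classical pathway, had -0.78 and -1.16, all past the test. C3 weighed heavily in the summed level of the set. All 41 members summed to 1298 to 1338 CPM in control 3 days, 1087 to 1149 in SP 3 days and 735 to 1336 in SP 12 days. Without C3 the sums were 1099 to 1171, 599 to 626 and 436 to 848 CPM. C3 made up 12.5% to 15.6% of the total in the control and 43.4% to 47.8% at 3 days.

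SP 12 days was also compared with SP 3 days, where duration of SP and time in culture cannot be told apart. Only RBP4 and C5 fell and none rose, of 29 members, against 3.65% lower and 4.46% higher over all genes, and none was called (0.0281% and 0.152% of all genes). RBP4 fell by 0.95 ± 0.21 and C5 by 0.61 ± 0.14 on the log2 scale (edgeR adjusted p = 0.0101 and 0.0228). The fall of RBP4 ended (adjusted p up to 0.0592) when replicate 3 of SP 3 days, or replicate 1 of SP 12 days, was left out, and that of C5 (adjusted p up to 0.0991) when any library of SP 3 days, or replicate 1 of SP 12 days, was left out. At an unadjusted p under 0.05, 9 members were lower and 2 higher, against 10.8% and 12.5% of all genes. Without SP 12 days replicate 3, 16 members were lower and 2 higher, where 14.5% of all genes were lower and 2456 of 18067 were higher. In that fit 1.08% of all genes were called lower, and so were FGB, AMBP, APOH and FGG. Their log2 fold changes were -2.22 ± 0.12, -1.87 ± 0.28, -1.54 ± 0.12 and -1.09 ± 0.09 (edgeR adjusted p = 4.10e-12, 2.02e-05, 1.40e-09 and 5.16e-09). The further decline between 3 and 12 days for these genes thus rests on which SP 12 days libraries are used.

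**Figure D5:**
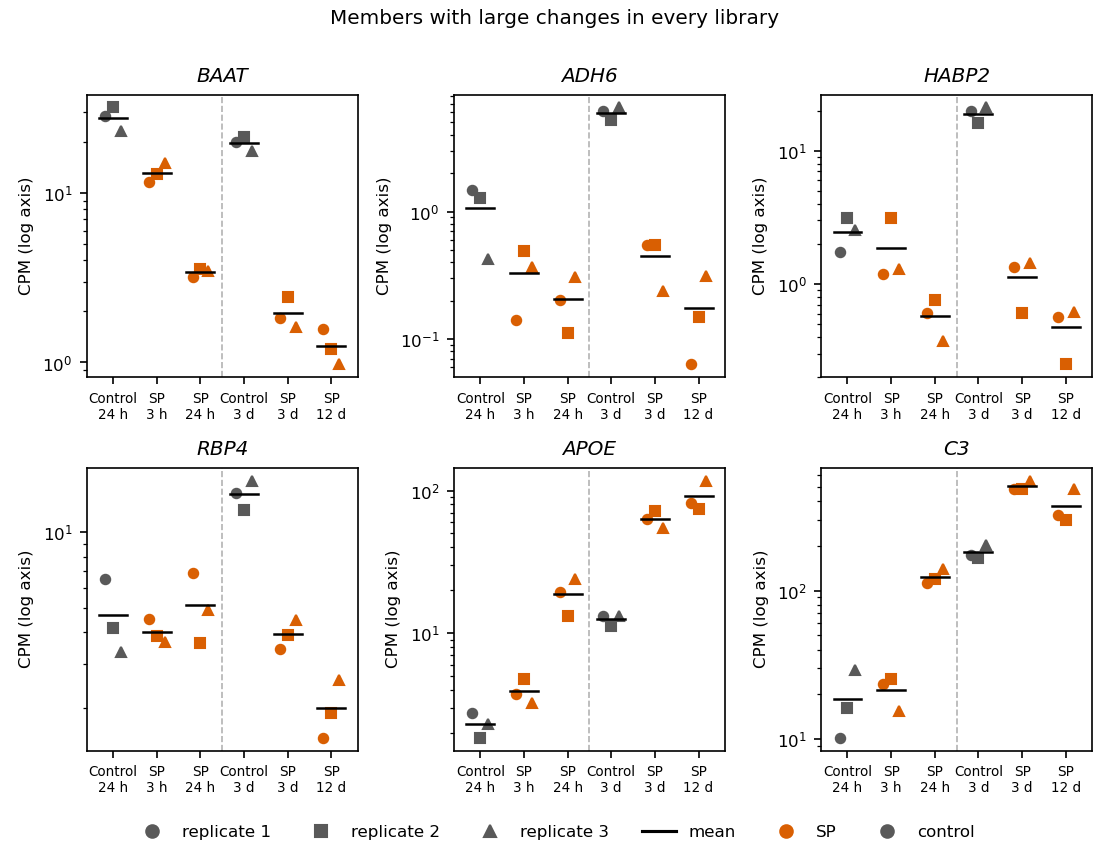
CPM (log axis, own range for each gene) of BAAT, ADH6, HABP2, RBP4, APOE and C3 in each library of the 6 groups, with symbols for replicates and bars for the mean. BAAT declines from control 24 h over SP 3 h to SP 24 h, and RBP4 overlaps among those 3 groups but not among control 3 days, SP 3 days and SP 12 days.

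To see which changes came early, SP 3 h and SP 24 h were compared with control 24 h, whose 3 libraries both comparisons share. For SP 3 h, SP and time in culture cannot be told apart. At 3 h, 2 of 25 members tested rose (8%) and 1 fell (4%), close to the 7.39% and 4.11% of all 17377 genes. None was called, nor was any other gene (0% in either direction), although DESeq2 called BAAT lower, with 0.679% of all genes called in that direction and 1.71% in the other. At an unadjusted p under 0.05, 6 members were lower and 3 higher, against 10.2% and 14.9% of all genes. BAAT measured 28.3, 31.9 and 23.1 CPM in control 24 h, 11.6, 12.9 and 15.0 in SP 3 h and 3.20, 3.58 and 3.48 in SP 24 h. The 3 groups were separate, and BAAT fell by 1.07 ± 0.15 at 3 h and 3.02 ± 0.17 at 24 h on the log2 scale (edgeR adjusted p = 0.00293 and 1.62e-05). PROC measured 2.75, 4.02 and 2.35 CPM in the control, 4.51, 5.51 and 6.11 at 3 h and 4.49, 6.13 and 5.67 at 24 h. It lay above the controls in all SP libraries and rose by 0.84 ± 0.23 and 0.85 ± 0.23 (adjusted p = 0.0444 and 0.0212), though with the GC and length correction neither passed. At 3 h the rise was also lost without any one of 8 libraries, namely any SP 3 h or SP 24 h library or control replicate 1 or 3 (adjusted p up to 0.130), and at 24 h without control replicate 1 or SP 24 h replicate 2 or 3 (adjusted p up to 0.0850).

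HPX rose at 3 h and fell between 3 h and 24 h. It measured 0.0529, 0.211 and 0.210 CPM in control 24 h, 0.635, 1.36 and 0.897 in SP 3 h and 0.445, 0.0895 and 0.203 in SP 24 h. At 3 h all libraries lay above the control, at 24 h they overlapped it. These are 11, 73 and 21 reads per group, a ratio of scaled reads of 6.33 (95% counting interval 3.34 to 13.2) at 3 h and 1.28 (0.590 to 2.94) at 24 h. The fitted change was 2.57 ± 0.60 at 3 h (edgeR adjusted p = 0.0240) and 0.43 ± 0.72 at 24 h (adjusted p = 0.674). The rise at 3 h was lost without control replicate 1 or 2 or SP 3 h replicate 2 (adjusted p up to 0.109), and did not pass with replicate number as a block.

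At 24 h members moved in both directions. Of 25 members 6 rose (24%) and 5 fell (20%), against 16.8% and 12% of all genes. The median was -0.19 for members and -0.01 for all genes. APOE was called higher and BAAT lower (0.622% and 0.0633% of all genes), and both calls were lost in a fit with replicate number as a block (adjusted p = 9.28e-04 for APOE and 2.73e-04 for BAAT), in which 6 members rose and 6 fell, AMBP being the sixth (-0.60 ± 0.13, adjusted p = 0.0157). Over all 17377 genes, 2881 rose and 2163 fell in that fit. Its block also spanned SP 3 h, whose same-numbered libraries were not paired with the control (r = -0.59 to -0.03). The call of BAAT was also lost without control replicate 2 or any single SP 24 h library and that of APOE without any single library of the table (adjusted p up to 0.00113). DESeq2 called 5 members at 24 h, APOE, C3 and FGA higher and BAAT and HABP2 lower. Over all 17377 genes it called 997 higher and 195 lower, against 108 and 11 by edgeR. ADH6, ADH1C, BAAT, HABP2 and ITIH2 were the 5 that fell. ADH6 measured 1.48, 1.27 and 0.421 CPM in the control and 0.202, 0.112 and 0.304 at 24 h and fell by 2.35 ± 0.58 on the log2 scale (adjusted p = 0.0151). HABP2 measured 1.75, 3.12 and 2.52 CPM in the control, 1.2, 3.11 and 1.30 at 3 h and 0.607, 0.761 and 0.371 at 24 h. Its SP 24 h libraries lay below the control and those of SP 3 h overlapped it, and it fell at 24 h by 2.05 ± 0.43 (adjusted p = 0.00729). ADH1C fell by 2.57 ± 0.53 from 41 to 10 reads per group and ITIH2 by 1.33 ± 0.38 (adjusted p = 0.00660 and 0.0280). The falls of ADH6 and ITIH2 were lost without control replicate 1 or SP 24 h replicate 2, and that of ITIH2 also without control replicate 2 or SP 24 h replicate 3 (adjusted p up to 0.0758 for ADH6 and 0.111 for ITIH2).

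The rises at 24 h were APOE, C3, FGG, FGA, FOXA3 and PROC. APOE measured 2.75, 1.85 and 2.31 CPM in the control, 3.74, 4.73 and 3.26 at 3 h and 19.6, 13.2 and 24.1 at 24 h. C3 measured 10.2, 16.2 and 29.1 CPM, then 23.4, 25.2 and 15.4, and then 113, 119 and 140. Both stood far above the control at 24 h, and rose by 3.04 ± 0.26 and 2.74 ± 0.36 on the log2 scale (edgeR adjusted p = 9.66e-05 and 8.08e-04). FGA measured 10.2, 14.3 and 8.98 CPM in the control, 7.34, 8.53 and 6.85 at 3 h and 23.8, 24.6 and 19.0 at 24 h. FGG measured 3.39, 4.44 and 2.38 CPM, then 2.12, 4.15 and 2.28, and then 8.66, 8.35 and 6.69. Their SP 24 h libraries lay above all controls, and FGA rose by 1.02 ± 0.19 and FGG by 1.23 ± 0.29 (adjusted p = 0.00429 and 0.0128), while FGB (-0.15 ± 0.31) and FGL1 (-0.24 ± 0.20) did not pass. FOXA3 measured 5.03, 5.13 and 4.38 CPM in the control and 8.13, 9.74 and 10.9 at 24 h, above all controls, and rose by 0.99 ± 0.18 (adjusted p = 0.00322), whereas HNF4A overlapped its control and did not pass (-0.19 ± 0.17, adjusted p = 0.425). With a correction for GC content and length HNF4A was lower at 24 h, with a log2 fold change of -0.58 ± 0.09 in the fit that also had the block (adjusted p = 0.00105), in which AMBP and CP passed as well (-0.90 and 0.71) and PROC did not. In that same fit the rise of FOXA3 was smaller, at 0.45 ± 0.16 (edgeR adjusted p = 0.0495).

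Several members outside the test had more reads at 24 h. SERPINA1 held 1, 2 and 3 reads in control 24 h, 0, 6 and 0 in SP 3 h and 9, 21 and 12 in SP 24 h. AHSG held 3, 6 and 8 reads, then 3, 9 and 5, and then 31, 54 and 11. Their SP 24 h libraries lay above the control in reads, with a ratio of scaled reads of 4.69 (95% counting interval 1.98 to 13.5) for SERPINA1 and 3.78 (2.24 to 6.76) for AHSG. ALB held at most 3 reads in any library of this table and TTR at most 3. AFP went the other way, with 6, 5 and 10 reads in the control and 2 in each SP 24 h library, a ratio of 0.191 (0.0632 to 0.490). At 24 h the summed epithelial markers were also higher, at 12285 to 13856 CPM against 6850 to 8374 in control 24 h, as were the fibroblast markers, at 63.4 to 91.3 against 6.72 to 22.5 CPM with DCN at 0 reads in both groups. The leukocyte markers summed to 14.7 to 17 CPM against 3.44 to 4.23 CPM in control 24 h, with CD3E, HLA-DRA and PTPRC at 0 reads in both groups. Their part in the member results was not tested.

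Among the 27 liver-type transcription factors tested in these libraries, 6 rose and 4 fell at 3 h, and 9 rose and 2 fell at 24 h. Over all genes, 7.39% rose and 4.11% fell at 3 h, and 16.8% and 12% at 24 h, shares that also stand beside the lists below. HNF4G fell by 1.27 and 2.06 on the log2 scale (edgeR adjusted p = 0.0467 and 0.00297). CREB3L3 rose from 7 reads in the control to 405 reads at 24 h, a log2 fold change of 5.20 ± 0.35 (adjusted p = 3.24e-05), and was called. In the other lists at 3 h, 1 of the 11 coagulation genes tested rose and 2 fell. None of the 11 complement, 10 apolipoprotein, 7 carrier and 11 enzyme genes passed the test. At 24 h these lists held 3 rises and 0 falls, 1 and 1, 4 and 0, 2 and 1, and 3 and 1, in that order, and ASS1 was called higher (2.24 ± 0.16). Between 3 h and 24 h of SP, 5 members rose and 3 fell, against 11.7% and 8.4% of all genes, and none was called (0.0288% and 0% of all genes), against 5 members by DESeq2 (FGA, FGG, C3 and APOE higher, BAAT lower), where 3.19% of all genes were called higher and 0.581% lower. Here too, duration of SP and time in culture cannot be told apart.

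The early and late comparisons used different controls. Members were lower in control 24 h than in control 3 days for the fibrinogen family and complement, for instance 8.98 to 14.3 CPM against 132 to 138 CPM for FGA, in tables that were scaled separately. Table and labelled time of the controls cannot be told apart here. The effect at 24 h minus the effect at 3 days was tested in a joint fit of all 18 libraries, a comparison chosen once the data were known. It passed for FGA, RBP4, HABP2, TF and FOXA3, all more positive at 24 h, against 3.15% of 18785 genes in that direction and 3.13% in the other. For FGA the difference was 1.91 ± 0.37 on the log2 scale (edgeR adjusted p = 0.00711), so the rise at 24 h and the fall at 3 days differed from each other. RBP4, which overlapped among the groups of the early table (3.33 to 6.51 CPM in control 24 h and 3.63 to 6.88 in SP 24 h), had a difference of 1.95 ± 0.35 (adjusted p = 0.00300). FGG had 1.84 ± 0.54 and did not pass (adjusted p = 0.0597), and TF rests on 6 reads in control 24 h and 13 in SP 24 h. The differences of HABP2 and TF ended when replicate 1 of control 3 days, 2 of SP 3 days or 1 of SP 24 h was left out, and that of HABP2 also without replicate 2 or 3 of control 3 days, 1 or 3 of SP 3 days, 1 of control 24 h or 2 of SP 24 h (adjusted p up to 0.120 for TF and 0.168 for HABP2).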

How the data were processed

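The authors aligned paired-end reads to GRCh38 with STAR 2.7.9a and counted them per gene with featureCounts, per their processing notes, which also name FastQC and R 4.2.1 and DESeq2 1.36.0 for the study's own tests. The deposited values are raw counts per Ensembl gene in 2 tables of 9 libraries each, and 0 columns lacked a sample. Whether counting used strand is not given in the sources used here. From the counts, genes were filtered with filterByExpr (minimum count 10), scaled by TMM and tested with the robust quasi-likelihood F test of edgeR 4.0.16 in R 4.3.3, each table in 1 fit of its 3 groups, with Benjamini-Hochberg adjustment over all tested genes. The standard error is the absolute log2 fold change divided by the square root of F. RPKM used the union of exons in GENCODE version 44. Ratios of reads have exact 95% counting intervals, which cover counting error only. The fit was tested on simulated data.

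Samples were grouped by their labels. The members and all lists were chosen with earlier results of these data known. Values per library were to be given for members past the study's thresholds in a comparison with control and for HNF4A, FOXA3, ALB, AFP, TTR, APOA1, APOB and SERPINA1, and of each list up to 4 genes past those thresholds plus a few set transcription factors including FOXA1, FOXA2, CEBPA and NR5A2. Some genes this rule names are not reported here. HNF4G, PPARA and the other list genes named follow from this rule. Alternatives were DESeq2 1.42.0, RLE size factors, no filter, only the 2 groups compared, a GC and length correction, a replicate block and leaving out each library. Same-numbered libraries were taken as paired only for SP 24 h and control 24 h (r = 0.170 to 0.504, against -0.546 to 0.175 for different numbers). Replicate 2 of SP 24 h was no closer to control replicate 2 (0.170) than to control replicate 3 (0.175). This pairing was taken from the same data and not from the labels. The joint fit of 18 libraries and the counts without SP 12 days replicate 3 were added after the data had been seen.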

Additional observations from a re-analysis of the deposited data

Results flagged for a closer look

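Effects that differed between times by a test of the difference itself are listed as values, with no explanation weighed. Between SP 12 days and SP 3 days, and between SP 24 h and SP 3 h, duration of SP and time in culture cannot be told apart. The effects at 24 h and 3 days come from separate tables, so time and table cannot be told apart. For the SP effect at 24 h minus the SP effect at 3 days, in the joint edgeR fit, the log2 difference was 4.34 for TF, 1.91 for FGA, 1.98 for HABP2, 1.95 for RBP4 and 0.99 for FOXA3. Between SP 12 days and SP 3 days it was -0.95 for RBP4 and -0.61 for C5. Between SP 24 h and SP 3 h it was 2.54 for C3, 2.27 for APOE, 1.57 for FGA, 1.44 for FGG and 0.84 for FOXA3, and -1.95 for BAAT, -1.71 for HABP2 and -2.15 for HPX. The differences of HABP2 and HPX were lost without SP 3 h replicate 2 or SP 24 h replicate 2 or 3, HABP2 also without SP 24 h replicate 1 and HPX also without SP 3 h replicate 3 (edgeR adjusted p up to 0.0857 for HABP2 and 0.0890 for HPX).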

How the results depend on the processing

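No member past the test reversed its direction under any alternative. Of 162 member comparisons, 28 that were not past the test, in 17 members, changed sign under 1 or more alternatives, and none passed the test after the change. For the 69 member results past the test in the main or joint fit, 981 values under the alternatives stayed past it and 103 did not. Results that passed only under an alternative are not in this count. With single libraries left out, the counts were 11 to 20 members lower, 3 higher and 9 to 13 called at 3 days, 17 to 21, 2 to 4 and 10 to 18 at 12 days, 0 to 16, 0 to 2 and 0 to 4 between 12 and 3 days, 1 to 5, 0 to 1 and 0 at 3 h, 3 to 8, 5 to 8 and 0 to 1 at 24 h, 1 to 3, 5 to 7 and 0 between 24 h and 3 h, and 3 to 6 members that differed between 24 h and 3 days. Of 18067 to 18286 genes in these fits, 3358 to 5242 were lower and 3906 to 5171 higher at 3 days. At 12 days it was 3509 to 4990 and 4096 to 4934. Between 12 and 3 days it was 254 to 2617 and 302 to 2456, each highest without SP 12 days replicate 3. Of 17701 to 18104 genes, 320 to 700 were lower and 621 to 1509 higher at 3 h. At 24 h it was 924 to 3093 and 1872 to 3525, and between 24 h and 3 h 562 to 2002 and 1161 to 2404. Genes called in these fits were 245 to 507 lower and 841 to 1576 higher at 3 days, and 279 to 662 and 901 to 1344 at 12 days. Between 12 and 3 days they were 3 to 196 and 3 to 104, at 24 h 0 to 7 and 1 to 81. Between 24 h and 3 h they were 0 and 1 to 12, and at 3 h none was called. In the joint fit 1.61% to 6.8% of genes were higher at 24 h. Between 12 and 3 days, the number of members lower was 4 with DESeq2 or no filter (810 and 893 of all genes), 1 with only the 2 groups (402) and 6 with the replicate block (823). The number higher was 1 with DESeq2 or no filter (817 and 1147) and 2 with the GC correction, alone (931) or with the block (873). At 3 h, 2 members were lower with no filter or with the block and 3 with the block and GC correction (669, 709 and 1933 of all genes, in that order). The number higher at 3 h was 1 with RLE, with only the 2 groups, with the block, with GC, and with block and GC. Over all genes these fits had 1168, 624, 1208, 1516 and 1685 higher, in that order. With DESeq2 or no filter, 1 member was called. Over all genes, DESeq2 called 297 higher and 118 lower at 3 h, and the fit with no filter 309 and 99. At 24 h, 5 members were called with DESeq2 or no filter, 1 with RLE or with the block and GC, and 0 with only the 2 groups or the block. Of 17377 genes, DESeq2 called 997 higher and 195 lower at 24 h, RLE 86 and 11, and the block with GC 253 and 153. With no filter it was 966 and 165 of 36979. Between 24 h and 3 h, 8 members were higher with no filter (2197 of all genes) and 5 lower with the block and GC (3273). The number of members called was 5 with DESeq2, 4 with no filter, 1 with GC and 2 with block and GC. Over all genes, these fits called 555, 517, 69 and 48 higher and 101, 85, 37 and 15 lower, in that order. The cause of the differences between settings was not tested. Where the numbers did not pair the libraries, same-numbered correlations were 0.0333 to 0.162 at 3 days and -0.593 to -0.0278 at 3 h, and the block left 12 days within 1.5 times the main counts. The GC and length correction moved the share of higher among called genes of the whole table from 77.9% to 60.8% at 3 days, 75.5% to 63.1% at 12 days and 90.8% to 65.7% at 24 h, and the median of all genes from -0.02 to -0.12, -0.00 to -0.10 and -0.01 to -0.13, beside member medians of -0.95, -1.26 and -0.11. Members with few reads, such as TF and F2, set the limit of depth.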
